A study of Rattus norvegicus with 6 samples.

Results

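The insulin-like growth factor (IGF) system was described in rat ADSCs (adipose-derived stem cells), stromal cells grown out of fat that can differentiate into adipocytes. The 9 genes are the ligand Igf1, the receptors Igf1r and Igf2r, and the binding proteins Igfbp2, Igfbp3, Igfbp4, Igfbp5, Igfbp6 and Igfbp7. They were taken by symbol from the platform annotation of the arrays, where each had 1 feature, and they are 9 of 18166 genes measured. The induced group was 3 cultures kept for 7 days in adipogenic medium with 20% fetal bovine serum, 5 µg/ml insulin, 1 µM of the glucocorticoid dexamethasone and 0.5 mM 3-isobutyl-1-methylxanthine, a phosphodiesterase inhibitor that raises cAMP. The control group was 3 cultures grown with 10% fetal bovine serum, for a time that the labels do not state. Both groups were ADSCs from the inguinal fat of Wistar rats, female and 2 weeks old, and the medium of both was α-MEM. Serum and the inducers therefore changed together and cannot be told apart. The labels call the cultures biological replicates without tying them to separate animals, so the p-values measure the spread between these cultures only.

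IGF1 is a secreted peptide that acts through the IGF1 receptor, a tyrosine kinase that drives growth and survival and passes its signal to IRS adaptor proteins and PI3-kinase. The IGF2 receptor, which is also the cation-independent mannose 6-phosphate receptor, carries lysosomal enzymes and takes up IGF2 for breakdown. The secreted binding proteins hold IGFs with high affinity and can limit or prolong their action, while IGFBP7 binds IGFs weakly. In fat, preadipocytes respond to IGF1 or to the high insulin of induction media, which also acts on the IGF1 receptor, and growth hormone is a main inducer of Igf1 transcription.

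Expression was measured on 6 one-colour Affymetrix arrays. Values are log2 signals made by RMA, so a difference of 1 is a factor of 2, and every difference is induced minus control. The array medians lay between 5.64 and 5.73. Induced replicate 3 stood apart: it differed by over 2-fold from induced replicates 1 and 2 at 2745 and 2664 features, while those 2 arrays differed from each other at 546. Induced replicate 3 was the lowest or the highest of the 6 arrays for 55.0% of all genes and for 7 of these 9, so results are also given without it. Adipocyte markers (6 of 6 measured) averaged 10.57, 10.60 and 11.45 on induced replicates 1 to 3, against 8.17, 6.54 and 6.50 on control replicates 1 to 3. Their summed unlogged signal was 13907 to 28348 in induced cells and 634 to 2799 in control cells. Stromal markers (5 of 6 measured) averaged 10.39, 10.47 and 9.47 in induced cells, against 10.94, 10.96 and 10.88 in control cells. The endothelial markers measured, Cdh5, Tek and Tie1 (3 of 5), lay between 4.47 and 6.51 on all 6 arrays.

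Promoter sequence is shown for Igf1, Igf2r and Igfbp7, the genes of the 9 whose unadjusted p was under 0.05. All 9 genes matched the RefSeq promoter table (GRCr8), and the 250 bases before the annotated start are printed 5′ to 3′ on the strand of the gene. Capitals mark matches, on either strand, to a TATA box (TATAAA), a GC box (GGGCGG), a glucocorticoid receptor half-site (TGTTCT), a cAMP response element half-site (TGACG) or an E-box (CACGTG).
Igf1, chr7:24172282-24172531, plus strand: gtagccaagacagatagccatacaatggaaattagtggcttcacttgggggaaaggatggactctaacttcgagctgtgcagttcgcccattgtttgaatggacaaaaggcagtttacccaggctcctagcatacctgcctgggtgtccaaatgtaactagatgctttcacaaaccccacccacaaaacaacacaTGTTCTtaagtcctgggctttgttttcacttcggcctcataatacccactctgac
Igf2r, chr1:50526628-50526877, plus strand: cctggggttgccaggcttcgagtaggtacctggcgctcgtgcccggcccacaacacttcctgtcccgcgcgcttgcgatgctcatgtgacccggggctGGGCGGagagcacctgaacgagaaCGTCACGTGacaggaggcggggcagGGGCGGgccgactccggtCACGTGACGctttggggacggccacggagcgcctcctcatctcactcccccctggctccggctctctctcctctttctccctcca
Igfbp7, chr14:31091486-31091735, plus strand: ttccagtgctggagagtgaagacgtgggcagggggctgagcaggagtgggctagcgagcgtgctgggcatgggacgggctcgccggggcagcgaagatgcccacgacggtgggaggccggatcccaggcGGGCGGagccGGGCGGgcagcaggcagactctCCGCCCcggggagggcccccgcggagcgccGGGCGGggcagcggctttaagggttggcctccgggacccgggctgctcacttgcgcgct

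The Igf1 window has 1 of these matches, a glucocorticoid half-site that begins 55 bases before the start, and 3 CpG dinucleotides against a median of 5 over 33469 promoters. The gene table of the same assembly places the first start of Igf1 further upstream, so this window belongs to an internal start. The Igf2r window has 23 CpG dinucleotides and 2 GC boxes. It also has 2 E-boxes, 125 and 85 bases before the start, each overlapping a cAMP half-site. The Igfbp7 window has 26 CpG dinucleotides and 4 GC boxes. Over all promoters of this length, 17.5% hold the glucocorticoid half-site, 18.2% the cAMP half-site, 30.5% the GC box, 5.59% the E-box and 12.9% the TATA box. Among the 9 genes, the numbers with a match are 2, 1, 4, 3 and 1 in the same order of motifs. Igfbp4 holds the TATA box, 40 bases before its start. Igf1r holds 45 CpG dinucleotides, more than 99.6% of promoters. A match describes the letters and is not evidence of binding.

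No gene of the 9 passed the test over all genes (0 of 9 at an adjusted p under 0.05, by limma with Benjamini-Hochberg adjustment), against a background of 0.749% of genes called (0.479% higher and 0.270% lower in induced cells). At an unadjusted p under 0.05 there were 3 of the 9, against 17.6% of all genes. The groups did not overlap for 5 of the 9, against 25.4% of all genes: Igf1 and Igfbp7 were higher in all induced cultures (background 12.0%), and Igf1r, Igf2r and Igfbp2 were lower in all of them (background 13.4%). The difference reached 1 on the log2 scale for 2 of the 9, Igf2r and Igfbp5, against 4.98% of all genes. The median absolute difference was 0.69 over the 9 genes and 0.17 over all genes. All of the 9 except Igfbp2 had a mean signal above the median of all genes, and this background was not matched for signal. Without induced replicate 3, Igf2r was called (1 of 9, background 3.07%). With both replicate 3 arrays left out Igf1 and Igf2r were called (2 of 9, background 4.07%), and with array weights Igf2r was called (1 of 9, background 5.11%).

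**Figure D1:**
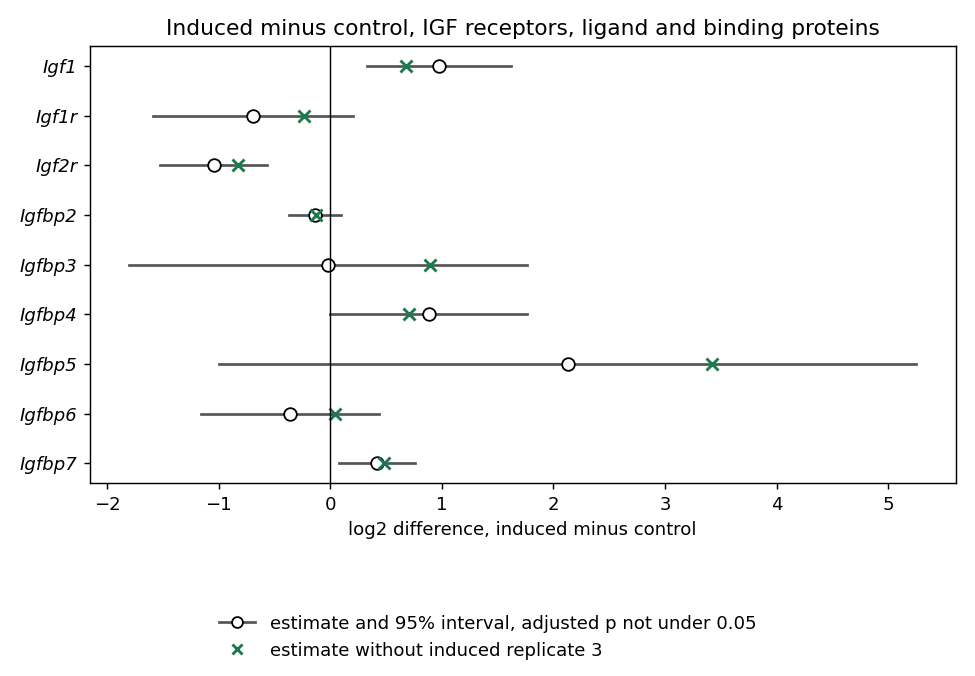
Difference between induced and control cells for each of the 9 genes, on a log2 axis with 0 as the vertical line. Open circles are the estimates from all 6 arrays with their 95% intervals, and green crosses are the estimates without induced replicate 3. The intervals of Igf1, Igf2r and Igfbp7 do not include 0, that of Igfbp5 is the widest, and no adjusted p was under 0.05.

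The ligand Igf1 read 10.77, 10.73 and 11.65 on induced replicates 1 to 3, against 9.85, 10.10 and 10.27 on control replicates 1 to 3. Each induced culture lay above each control culture, and induced replicate 3 was the highest. The means were 11.05 ± 0.52 in induced cells and 10.08 ± 0.21 in control cells (SD, n = 3 each). The difference was 0.98 (SE 0.27, 95% interval 0.33 to 1.62, limma adjusted p = 0.15), which is 1.97-fold. Without induced replicate 3 it was 0.67 (adjusted p = 0.072). Adipocyte markers were higher in induced cells, as given above. The macrophage and leukocyte list (6 of 6 measured) summed to 1617 to 2078 in induced cells and 732 to 1548 in control cells, unlogged. Its mean log2 levels overlapped between the groups, as did each of its 6 genes, and 0 of the 6 passed over all 6 arrays. Without induced replicate 3, C1qb of that list was higher in induced cells by 2.88 (limma adjusted p = 0.00123, background 3.07% called). The others of the list did not pass there (adjusted p = 0.283 to 0.923). No marker of that list was at 0, which this scale does not reach, and its general leukocyte gene Ptprc read 4.26 to 5.13 in induced cells and 4.04 to 5.64 in control cells. Macrophages also make IGF1, and their part in the Igf1 difference was not tested. In bulk RNA, more cells of a type and more RNA per cell cannot be told apart.

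Both receptor genes were lower in every induced culture. Igf2r read 9.69, 9.66 and 9.02 in induced cells, against 10.44, 10.42 and 10.64 in control cells. The groups lay well apart, with the lowest value again on induced replicate 3. The means were 9.46 ± 0.38 in induced cells and 10.50 ± 0.12 in control cells (SD, n = 3 each), a difference of -1.05 (SE 0.20, 95% interval -1.53 to -0.56, limma adjusted p = 0.0839). That is 2.07-fold lower in induced cells, and it had the smallest adjusted p of the 9 genes. Without induced replicate 3 the difference was smaller, -0.83, but its SE was also smaller (0.12), and it passed (adjusted p = 0.0233).

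Igf1r, the signalling receptor, read 9.95, 9.76 and 8.48 in induced cells, against 10.02, 10.24 and 10.01 in control cells. The lowest control culture and the highest induced culture were nearly level, and the distance between the group means came mostly from induced replicate 3. The difference was -0.69 (SE 0.38, 95% interval -1.59 to 0.20, limma adjusted p = 0.398), and -0.23 without that array (adjusted p = 0.434). The stromal receptor gene Pdgfra, among the markers, was also lowest on that array. It read 11.99, 11.95 and 9.05 in induced cells, against 12.26, 11.77 and 11.61 in control cells. Pdgfra was chosen after its values were seen, and that array was the lowest for 28.9% of all genes. The stromal markers Nt5e, Cd44 and Itgb1 were also lowest there. Thy1, the other stromal marker measured, was instead highest there among induced cultures. Its values were 11.11, 11.10 and 11.21 in induced cells, against 12.16, 11.84 and 12.33 in control cells.

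**Figure D2:**
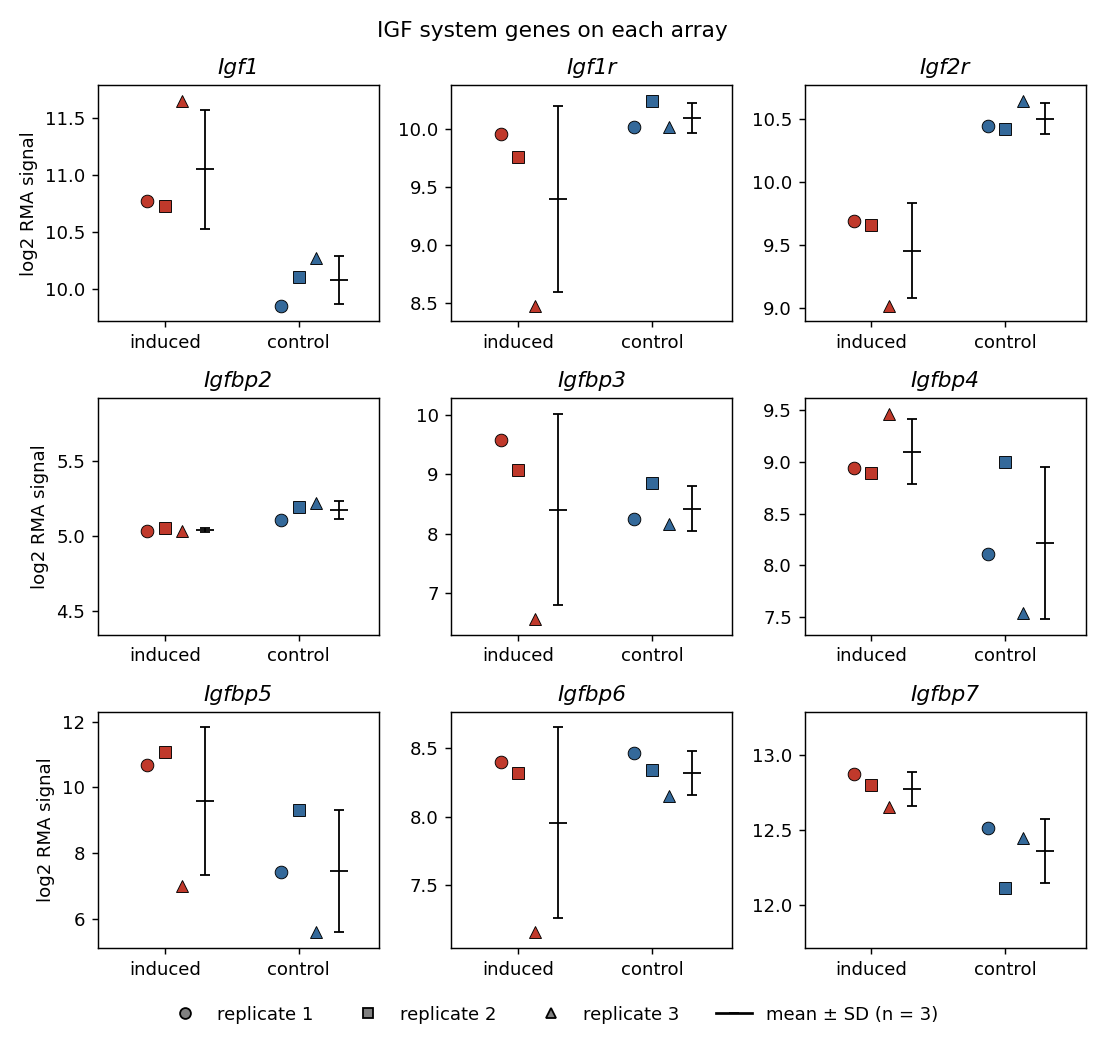
Log2 RMA signal of each of the 9 genes on each array, induced cultures left and control cultures right in each panel, with the symbol giving the replicate number and bars giving mean ± SD (n = 3). Axes do not start at 0 and differ in range between panels. Igf1 and Igfbp7 are higher and Igf1r, Igf2r and Igfbp2 lower in all induced cultures. Igf1r, Igfbp3, Igfbp5 and Igfbp6 each have induced replicate 3 far below the other induced arrays.

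Among the binding proteins, Igfbp7 was the only one of the 6 with every induced culture above every control culture. It read 12.88, 12.80 and 12.65 in induced cells, against 12.51, 12.11 and 12.45 in control cells. The means were 12.78 ± 0.11 in induced cells and 12.36 ± 0.21 in control cells (SD, n = 3 each). The lowest induced culture, at 12.65, lay close to the highest control culture, at 12.51. The difference was 0.42 (SE 0.14, 95% interval 0.07 to 0.76, limma adjusted p = 0.217), or 1.33-fold, and it was 0.48 without induced replicate 3 (adjusted p = 0.172). These signals lie near the top of the array range, whose highest value was 13.55 over all features.

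Igfbp4, whose protein is cleaved by the protease PAPP-A to free IGFs, read 8.94, 8.89 and 9.46 in induced cells, against 8.11, 9.0 and 7.54 in control cells. Control replicate 2 lay above induced replicates 1 and 2, so the groups overlapped. The means were 9.10 ± 0.31 in induced cells and 8.22 ± 0.73 in control cells (SD, n = 3 each). The difference was 0.88 (SE 0.37, limma adjusted p = 0.284), 0.70 without induced replicate 3 (adjusted p = 0.412) and 0.54 without control replicate 3 (adjusted p = 0.552).

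Igfbp5, which binds matrix as well as IGFs, had the largest difference of the 9 and the widest spread. It read 10.68, 11.07 and 6.99 in induced cells, against 7.44, 9.31 and 5.61 in control cells. The replicate 3 array was the lowest of each group, and induced replicate 3 lay below 2 of the 3 control cultures. The means were 9.58 ± 2.25 in induced cells and 7.45 ± 1.85 in control cells (SD, n = 3 each), a difference of 2.13 (SE 1.31, 95% interval -0.997 to 5.25, limma adjusted p = 0.46). Its spread within groups was at the 99.97th percentile of all genes, and the difference did not pass. Part of that spread was shared by same-numbered arrays, and each induced culture lay above the control culture of its number. Taking replicate number as a block leaves the estimate at 2.13 by design, since each number occurs in both groups. The SE fell to 0.383 (limma adjusted p = 0.123). Leaving out both replicate 3 arrays gave 2.497 (SE 0.531, adjusted p = 0.0540). Whether the numbers pair the samples is not known. Without induced replicate 3 the difference was 3.42 (SE 0.94, adjusted p = 0.121), it was 1.38 without induced replicate 2, and it was 1.20 without control replicate 3.

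Igfbp3, the main carrier of IGF in blood, read 9.57, 9.07 and 6.57 in induced cells, against 8.25, 8.86 and 8.16 in control cells. Induced replicates 1 and 2 were the highest of the 6 arrays and induced replicate 3 the lowest. The difference over all arrays was -0.02 (SE 0.75, 95% interval -1.80 to 1.76, limma adjusted p = 0.992), and without induced replicate 3 it turned to 0.90 (SE 0.25, adjusted p = 0.127). Without control replicate 2 it was 0.20 (adjusted p = 0.959), so the arrays fix no direction, and the interval spans more than a 2-fold change either way.

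Igfbp6, which prefers IGF2 over IGF1, read 8.40, 8.32 and 7.15 in induced cells, against 8.47, 8.34 and 8.15 in control cells. Apart from induced replicate 3, which was the lowest, the groups lay among each other. The difference was -0.36 (SE 0.33, limma adjusted p = 0.632), and 0.04 without that array (adjusted p = 0.927). Igfbp2, which encodes another binding protein found in blood, read 5.03, 5.06 and 5.03 in induced cells, against 5.11, 5.19 and 5.22 in control cells. All 6 values were below the median feature of their array, and RMA gives no detection call, so whether Igfbp2 was expressed cannot be read from them. The difference of -0.13 (SE 0.10, limma adjusted p = 0.536) did not pass although the groups did not overlap.

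**Figure D3:**
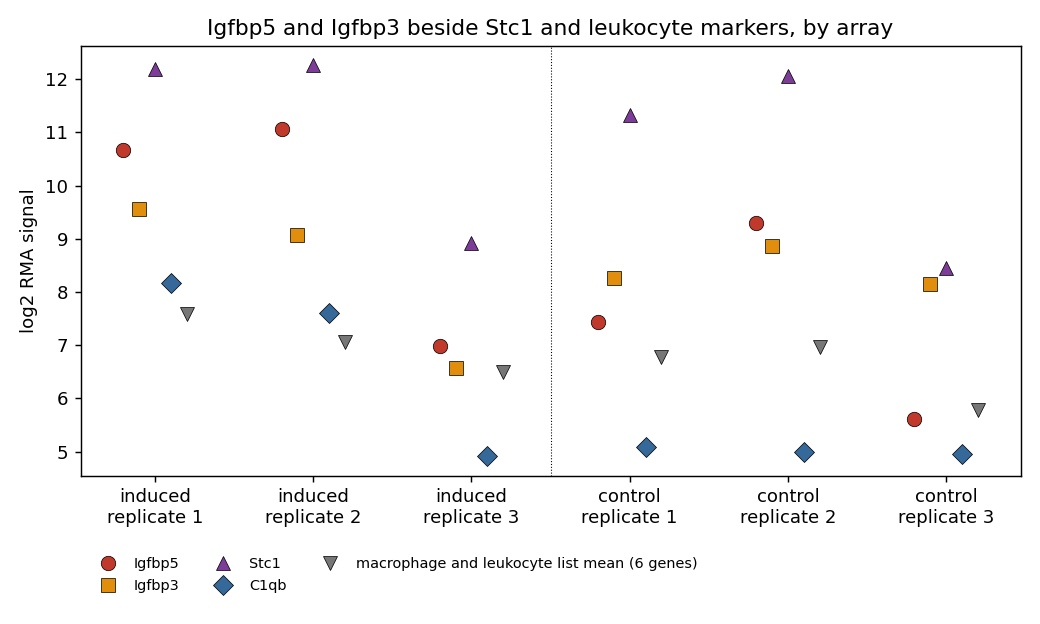
Log2 RMA signal of Igfbp5, Igfbp3, the PAPP-A inhibitor gene Stc1, the complement gene C1qb and the mean of 6 macrophage and leukocyte markers on each of the 6 arrays, induced cultures left of the dotted line and control cultures right of it. All the series shown are lowest on the replicate 3 array in both groups, by a small margin among control cultures for Igfbp3 and C1qb. C1qb is high on induced replicates 1 and 2 alone.

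The arrays on which Igfbp5 was low were also low for some other genes. Stc1, which encodes stanniocalcin 1, an inhibitor of PAPP-A, read 12.20, 12.26 and 8.92 in induced cells, against 11.32, 12.07 and 8.45 in control cells (it was chosen after its values were seen). The macrophage and leukocyte list averaged 7.58, 7.06 and 6.49 in induced cells, against 6.78, 6.98 and 5.79 in control cells. C1qb, one of its members, read 8.17, 7.60 and 4.92 in induced cells, against 5.09, 4.98 and 4.96 in control cells. Cd68, another member, was instead highest on induced replicate 3, at 8.92, 8.38 and 9.45 in induced cells, against 8.01, 8.60 and 5.96 in control cells. Both were chosen after their values were seen. The part of these cells in the Igfbp5 and Igfbp3 values was not tested. Of 9014 other genes with a mean above the median of all genes, those whose profile was most like that of Igfbp5 over the 6 arrays were Rcl1 (Pearson r = 0.982), Rrn3 (r = 0.982) and C1qtnf1 (r = 0.98). For Igf1 they were Pex19 (r = 0.997), Pus10 (r = 0.997) and Rhbg (r = 0.995). Pex19, which encodes an import factor for peroxisomal membrane proteins, read 8.41, 8.57 and 9.86 in induced cells, against 7.18, 7.55 and 7.82 in control cells. These likenesses describe 6 arrays that share 2 groups and 1 normalization, and the best match among so many genes will be high.

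The other genes of the pathway were taken from a list of 23, all of them measured. Of the 23, 1 was called (1 higher and 0 lower, against the same 0.479% and 0.270% of all genes). The median difference was 0.15 over the list and -0.01 over all genes. The called gene was Ghr, the growth hormone receptor, which read 11.66, 11.72 and 12.50 in induced cells, against 9.40, 9.13 and 8.01 in control cells. Every induced culture was above every control culture by more than the spread within either group. The difference was 3.11 (SE 0.40, 95% interval 2.15 to 4.07, limma adjusted p = 0.033), or 8.65-fold. It was 2.84 without induced replicate 3 (adjusted p = 0.0177), but the call was lost when any 1 of the other 5 arrays was left out (adjusted p = 0.0522 to 0.15). The estimate stayed between 2.70 and 3.39 in those fits.

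Of the genes that carry the receptor signal, 0 of 8 passed. In every induced culture 3 of the 8 were higher (12.0% of all genes were) and 1, the adaptor gene Shc1, was lower (13.4% of all genes were). Irs1, an adaptor of the insulin and IGF1 receptors, read 7.65, 7.41 and 8.64 in induced cells, against 6.82, 6.20 and 6.81 in control cells. Its difference was 1.29 (SE 0.34, limma adjusted p = 0.144). Pik3r1, a regulatory subunit of PI3-kinase, stood at 1.12 (SE 0.23, adjusted p = 0.0898) and read 11.11, 10.93 and 11.53 in induced cells, against 10.34, 10.19 and 9.69 in control cells. Insr, the insulin receptor, read 8.35, 8.09 and 9.42 in induced cells, against 7.76, 7.72 and 7.74 in control cells, a difference of 0.88 (SE 0.33, adjusted p = 0.246). Without induced replicate 3 it was 0.48 (adjusted p = 0.108), and the differences of Irs1 and Pik3r1 were 0.92 and 0.95 (adjusted p = 0.0825 and 0.0675). The second IGF ligand, Igf2 (named outside the rule, after its values were seen), read 5.26, 5.06 and 5.36 in induced cells, against 5.35, 5.22 and 5.28 in control cells, below the median feature on all 6 arrays.

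Of 8 genes for proteases that cleave binding proteins and for their inhibitors, 0 passed. In every induced culture 1 of the 8, Adam9, was higher (12.0% of all genes were) and 2, Stc2 and Adam12, were lower (13.4% of all genes were). Pappa, which encodes PAPP-A, read 9.91, 9.55 and 7.12 in induced cells, against 9.29, 9.78 and 9.84 in control cells. Its difference of -0.78 (SE 0.70, limma adjusted p = 0.626) was 0.09 without induced replicate 3. Adam9, a membrane metalloprotease, read 10.12, 10.21 and 10.14 in induced cells, against 9.50, 9.59 and 9.16 in control cells, and its difference was 0.74 (SE 0.14, adjusted p = 0.0815). Stc2 encodes the related PAPP-A inhibitor stanniocalcin 2, and Adam12 a protease known to cleave IGFBP3 and IGFBP5. Their differences were -0.66 (limma adjusted p = 0.238) and -0.65 (adjusted p = 0.147). Both are named outside the rule, after their values were seen.

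**Figure D4:**
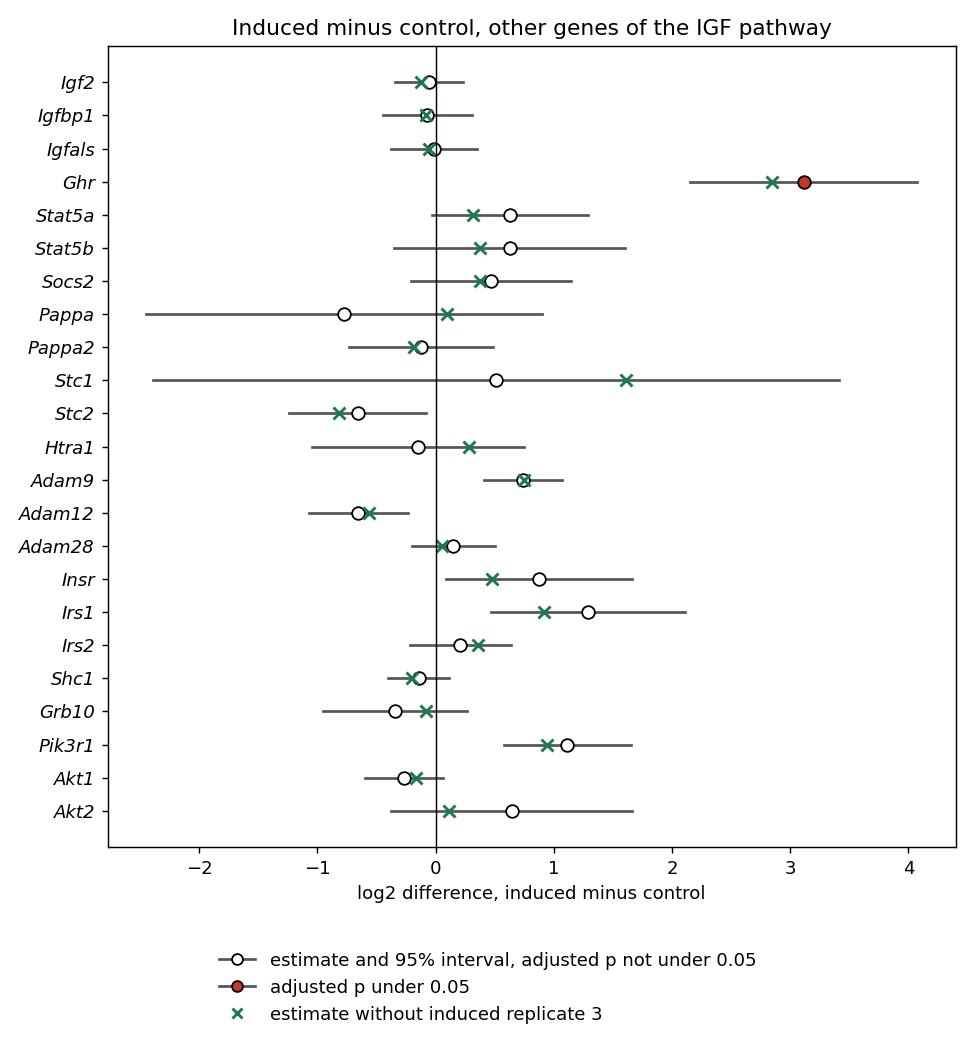
Difference between induced and control cells for the 23 other genes of the IGF pathway, on a log2 axis, with circles for the estimates from all 6 arrays, bars for 95% intervals and crosses for the estimates without induced replicate 3. Ghr, at 3.11, is the filled circle, the 1 gene with an adjusted p under 0.05, and the intervals of Stc1 and Pappa are the widest.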

How the data were processed

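Total RNA (6 µg) was labelled with biotin for one-colour Affymetrix arrays, per the labels' protocols. RMA made the deposited log2 values, per the submitters' processing notes, which name no version or genome build. That the unit is log2 was read from the values themselves. Of 36685 features, 18511 had 1 gene symbol, 575 several and 17599 none. Where a symbol had several features, that of the highest mean stood for the gene, giving 18166 genes. Precision is limited by the number of arrays, which have no depth.

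The comparison used lmFit and eBayes of limma 3.58.1 under R 4.3.3 (two-sided, no block, 4 residual degrees of freedom), with Benjamini-Hochberg adjustment over all genes. The script was tested on simulated data that gave each gene the same spread on every array, so an outlying array such as induced replicate 3 was not modelled. An exact permutation test of 3 against 3 cannot go below p = 0.1, so none is given. The members, gene lists and tests were chosen with earlier results of these data known. All 9 members are named. Pathway genes are named when called or among the 6 largest absolute differences. Shc1, Stc1, Stc2, Adam12 and Igf2 are named outside that rule, after their values were seen. Likeness was searched for Igf1 and for the member with the largest difference. The alternatives were a replicate block, leaving out arrays, array weights, an intensity trend, a filter on dim genes, all features, and the mean of a gene's features.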

Additional observations from a re-analysis of the deposited data

How the results depend on the processing

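Counts of calls depended on single arrays. Of all genes, 136 were called, against 2, 26 and 557 without induced replicates 1, 2 and 3, 112, 15 and 20 without control replicates 1, 2 and 3, 740 without both replicate 3 arrays, 929 with array weights, 69 over all features and 12 with the replicate block. Calls were 64.0% higher in the fit to all arrays, 51.0% with array weights and 56.2% without both replicate 3 arrays. Of the 9 members 0 were called, against 0 to 1 with 1 array left out, 2 without both replicate 3 arrays and 1 with array weights. Of the 23 pathway genes 1 was called, against 0 to 1 with 1 array left out, 2 without both replicate 3 arrays, 4 with array weights, 0 over all features and 0 with the replicate block, where Ghr had an adjusted p of 0.0919. The block changed no other call among the members and pathway genes. Same-numbered arrays deviated together weakly (r = 0.02, 0.12 and 0.15 for numbers 1 to 3). Induced replicates 2 and 3 deviated most like the control array of the same number, but induced replicate 1 deviated most like control replicate 2 (r = 0.12). With 3 arrays in each group these values cannot decide whether the numbers pair the samples, and the main fit took no pairing.

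Igfbp3 (-0.02 over all arrays) turned to 0.90 without induced replicate 3, 0.20 without control replicate 2, 0.76 without both replicate 3 arrays and 0.58 with array weights, with -0.60 as the lowest value when 1 array was left out. Igfbp6 lay between -0.59 and 0.0377 with 1 array left out. Pappa turned to 0.0939 without induced replicate 3 (-1.30 without induced replicate 1) and 0.20 without both replicate 3 arrays. With 1 array left out Stc1 ranged from -0.57 to 1.61 and Igf2 from -0.12 to 0.0307. The signs of Igfbp4 and Igfbp5 held in all settings tried. Those of Igf1, Igf1r, Igf2r, Igfbp2 and Igfbp7 held too, but their groups did not overlap. Leaving out or weighting arrays could therefore not turn their signs. Igfbp2 had no value under the filter on dim genes. The replicate block, intensity trend, dim-gene filter and feature settings leave a member's estimate unchanged by design, so they are no check of sign. The cause of the changes in Igfbp3, Igfbp6, Pappa, Stc1 and Igf2 was not tested.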
